A study of Mus musculus with 32 samples.

Results

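Interferon-stimulated genes are genes whose transcription rises when a cell receives an interferon signal. The set described here held 39 named mouse genes, taken from a list of symbols. Of these, 37 had a row in the count table of 32285 genes, and Mx1 and Mx2 were not analysed here. The count table came from 32 bladders, taken whole from C57BL/6 females. The 3 untreated groups were 6 young bladders at 2 months, 5 middle-aged at 10 months and 6 untreated old at 26 months. The other groups, also taken at 26 months, had been gavaged monthly since month 21, on 3 consecutive days each time. Water-treated old mice (n = 5) received water. Vehicle-treated old mice (n = 4) received 60% Phosal 50 PG, 30% PEG 400 and 10% ethanol. D+Q-treated old mice (n = 6) received, in that same vehicle, the senolytic pair dasatinib (5 mg/kg/day) and quercetin (50 mg/kg/day), drugs given to remove senescent cells. Cells of the bladder wall were not separated, so a lower level can mean fewer cells of a type or less RNA per cell, which cannot be told apart.

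Type I interferons (alpha, beta and others) and type III interferons (lambda) signal through JAK1 and TYK2 to a complex that holds STAT2 and IRF9 and binds the interferon-stimulated response element in promoters. Type II interferon (gamma), made mostly by T cells and natural killer cells, signals through JAK1 and JAK2 to the gamma-activated site in promoters. Many genes answer to both, although the IFIT and OAS families are classically read as type I targets and the guanylate-binding proteins (GBP) and immunity-related GTPases (IRG) as strong type II targets. In the bladder these genes belong to the defence of urothelium and resident immune cells against infection.

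Promoter sequences from RefSeq (GRCm38.p6, the assembly of mm10, to which the authors aligned the reads) were present for 29 of the 37 genes. They cover 250 bases before and 50 bases after the start of the gene. The letters GAAA followed, after any 2 bases, by GAAA, or the reverse complement (TTTC, any 2 bases, TTTC), which form the core of the interferon-stimulated response element, stood in the promoters of 18 of these 29 genes (62.1%) and in 3.99% of the 27025 genes with a promoter in the same table. The letters TTCNNNGAA of the gamma-activated site, which read the same on both strands, stood in 6 of the 29 genes (20.7%) and in 9.55% of all genes. These are matches of letters, and binding was not measured. The stretches below, each upstream of the start, were taken only from genes that hold a match and are named in the results that follow. Other genes of those results, among them Irf7, Irf9, Oasl2, Ifi47 and Rnf213, held no match to the response element in their promoters. Capitals mark every match to the response element, with overlapping matches merged.
Isg15, chr4:156200855-156200914, minus strand: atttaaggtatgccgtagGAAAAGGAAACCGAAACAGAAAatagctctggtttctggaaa
Ifit1, chr19:34640767-34640826, plus strand: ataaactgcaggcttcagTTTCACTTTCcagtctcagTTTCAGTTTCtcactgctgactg
Ifit3, chr19:34583355-34583414, plus strand: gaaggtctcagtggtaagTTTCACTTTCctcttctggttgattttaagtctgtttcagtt
Ifit3b, chr19:34607751-34607810, plus strand: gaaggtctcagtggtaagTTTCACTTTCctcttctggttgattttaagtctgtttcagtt
Oas3, chr5:120777693-120777752, minus strand: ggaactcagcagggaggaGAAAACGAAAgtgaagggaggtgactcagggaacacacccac
Oas1a, chr5:120907526-120907585, minus strand: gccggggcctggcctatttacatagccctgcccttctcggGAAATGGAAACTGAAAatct
Ifi213, chr1:173599304-173599363, minus strand: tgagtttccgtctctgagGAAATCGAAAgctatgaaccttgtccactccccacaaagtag
Igtp, chr11:58199496-58199555, plus strand: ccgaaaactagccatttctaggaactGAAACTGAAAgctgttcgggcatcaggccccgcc
Trim30a, chr7:104465194-104465253, minus strand: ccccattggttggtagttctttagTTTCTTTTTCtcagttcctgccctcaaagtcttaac
Isg15 held 3 overlapping matches in this stretch, Oas1a 2 overlapping matches and Ifit1 2 separate matches. The Ifit3 and Ifit3b stretches were identical letter for letter. A GENCODE transcript of each (1745 and 2000 bases) was also 98.0% identical over 1697 aligned bases, so reads of this pair may be split between them in ways the counting does not resolve, and both are reported as uncertain.

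Counts summed over all genes ranged from 15088372 to 52650259 per bladder. The 37 genes were all above the filter on low counts in all 8 main comparisons. Values below are in CPM, counts scaled to library size, after trimmed mean of M values (TMM) scaling over all bladders, and p-values are from edgeR's quasi-likelihood test, Benjamini-Hochberg adjusted over all genes tested. Markers of urothelium and smooth muscle were abundant in every bladder, with summed levels of 4791 to 6459 CPM for 8 urothelial genes and 23608 to 37953 CPM for 6 smooth muscle genes. Markers of leukocytes differed between groups: the sum of Ptprc, Cd52, Coro1a and Laptm5 was 105 to 122 CPM in middle-aged and 228 to 358 CPM in untreated old bladders, and none of the 4 genes was at 0.

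The comparison of untreated old with middle-aged bladders showed a rise across almost the whole set. Of the 37 genes, 33 rose (adjusted p under 0.05), against 13.0% of the 17156 genes tested that rose. None fell, and 0 were lower at an unadjusted p under 0.05. DESeq2 called 33 of the 37 higher, against 12.8% of its 20640 genes tested. Over the 37 genes the log2 fold change had a median of 0.73, while the median over all genes tested was below 0.01 in absolute value. In 30 of the 37 genes every untreated old bladder was above every middle-aged bladder, against 7.61% of all genes tested. The 4 genes that did not pass were Ifit3b, Rsad2, Cmpk2 and Ifi27. The largest rises were those of Oas3 (3.48-fold), Zbp1 (3.34-fold), Ifi213 (3.10-fold), Oas1a (2.53-fold) and Ifi47 (2.42-fold), and the smallest that passed was Ifi35 (1.197-fold).

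**Figure D1:**
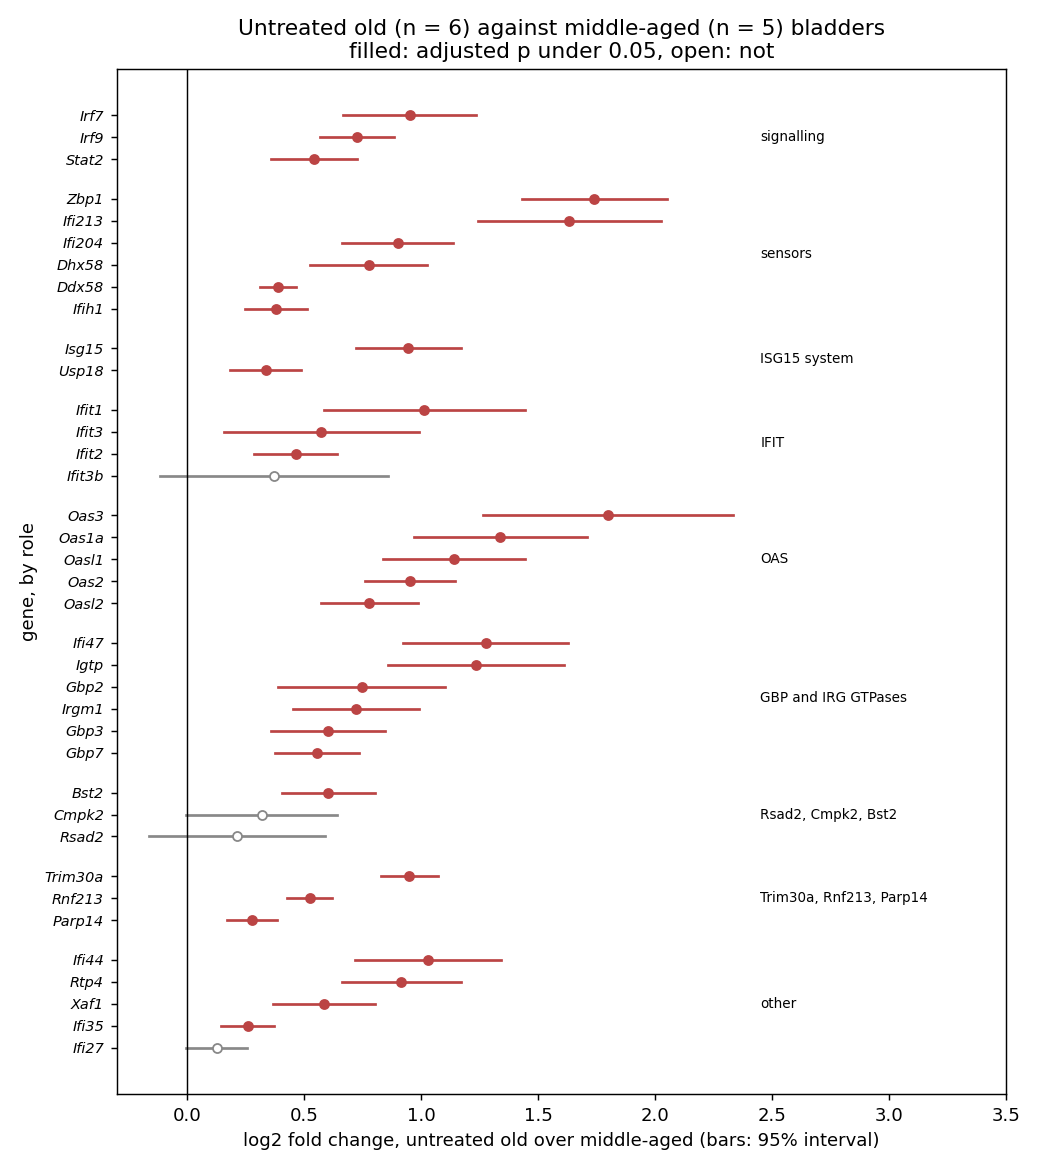
Log2 fold change (x axis) of 37 interferon-stimulated genes (y axis, by role) in untreated old (n = 6) over middle-aged (n = 5) bladders. Points are estimates, bars are 95% intervals, filled points passed adjusted p under 0.05 (33 of 37), and all 37 estimates lie right of 0, from 0.13 (Ifi27) to 1.80 (Oas3).

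The signal-relay genes Irf7, Irf9 and Stat2 all rose. IRF7, the regulator that amplifies type I interferon transcription, had middle-aged values of 12.5, 12.7, 15.0, 12.9 and 11.3 CPM for Irf7, and untreated old values from 19.5 to 34.9 CPM (median 23.5). The groups did not overlap, and Irf7 rose by a log2 fold change of 0.95 ± 0.13 (SE; adjusted p = 0.000255). Irf9, the DNA-binding part of the STAT complex, had 31.0, 29.3, 30.0, 31.6 and 27.4 CPM in middle-aged bladders, and 41.5 to 56.1 CPM (median 48.3) in untreated old bladders. Its rise of 0.73 ± 0.07 (adjusted p = 2.59e-05) again left a gap between the groups. Stat2, which belongs to the same complex, had 50.2, 51.5, 59.6, 56.7 and 52.7 CPM against 65.6 to 94.5 CPM (median 76.4), a rise of 0.54 ± 0.09 (adjusted p = 0.000622) without overlap. Irf7 overlaps Phrf1 on the opposite strand and Irf9 overlaps Rnf31 on the same strand, and whether counting used strand is not given in the sources used here.

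All 6 sensors of foreign nucleic acid rose, and they differed widely in size. Zbp1, a sensor of Z-form nucleic acid that can start necroptosis, had 4.42, 4.39, 4.84, 4.52 and 3.89 CPM in middle-aged bladders and 9.73 to 19.7 CPM (median 14.6) in untreated old bladders. Zbp1 rose by 1.74 ± 0.14 (adjusted p = 6.75e-06), and even the lowest old bladder had more than the highest middle-aged bladder by a wide margin. Ddx58, which encodes the RNA sensor RIG-I and was the most abundant sensor per length (31.8 TPM, the unit that also divides by gene length, in untreated old bladders), had 50.5, 50.6, 51.3, 52.1 and 48.4 CPM against 61.8 to 69.5 CPM (median 64.9). Its rise was small, 0.39 ± 0.04, yet its narrow spread gave an adjusted p of 1.52e-05. Ifih1 (the RNA sensor MDA5, 0.38 ± 0.06) and Dhx58 (LGP2, which modulates both, 0.78 ± 0.12) also rose. So did Ifi204 (0.90 ± 0.11) and Ifi213 (1.63 ± 0.18, adjusted p = 4.93e-05), which belong to the PYHIN family of DNA sensors on chromosome 1.

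The ISG15 pair moved by unequal amounts. Isg15, a ubiquitin-like protein that is attached to other proteins and secreted, had 2.85, 3.31, 3.32, 3.19 and 2.702 CPM in middle-aged bladders and 5.13 to 7.24 CPM (median 5.75) in untreated old bladders. It rose by 0.95 ± 0.10 (adjusted p = 4.36e-05), and the groups did not overlap. Usp18, which removes ISG15 and blocks the type I receptor, had 16.05, 17.7, 16.7, 15.3 and 15.7 CPM against 17.7 to 23.4 CPM (median 20.04), a rise of 0.34 ± 0.07 (adjusted p = 0.00433). The lowest old bladder was only just above the highest middle-aged bladder.

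Of the IFIT family, proteins that bind foreign RNA ends, 3 of 4 genes rose. Ifit1 had 7.86, 6.84, 9.44, 7.24 and 6.54 CPM in middle-aged bladders and 10.97 to 25.7 CPM (median 13.5) in untreated old bladders. The rise of Ifit1 was 1.01 ± 0.20 (adjusted p = 0.00280), and replicate 4 alone held the top value, the other 5 old bladders being at 10.97 to 14.6 CPM. Ifit3, the most abundant of the family per length (46.2 TPM in untreated old bladders), had 15.7, 14.3, 19.8, 15.3 and 14.4 CPM against 17.9 to 40.4 CPM (median 20.4). Its groups overlapped, its rise of 0.57 ± 0.19 was close to the threshold (adjusted p = 0.0467), and it missed the threshold when middle-aged replicate 1, 2, 4 or 5 or untreated old replicate 2 or 5 was left out (adjusted p 0.0548 to 0.106). Ifit2 rose by 0.46 ± 0.08, and Ifit3b gave 0.37 ± 0.22 (adjusted p = 0.258).

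All 5 genes of the OAS family rose. Enzymes of this family make a short second messenger from ATP on sensing double-stranded RNA, although not every OASL protein keeps that activity. Oas3 had 1.02, 0.763, 1.58, 0.990 and 0.910 CPM in middle-aged bladders and 2.47 to 5.63 CPM (median 3.30) in untreated old bladders. It showed the largest log2 fold change of the set, 1.80 ± 0.25 (adjusted p = 0.000243), at the lowest level of the set per length (1.77 TPM in untreated old bladders). Oasl2, the most abundant of the family (25.6 TPM), had 27.4, 30.8, 30.7, 25.6 and 25.7 CPM against 40.2 to 57.8 CPM (median 45.2), a rise of 0.78 ± 0.10 (adjusted p = 0.000113). Oas1a rose by 1.34 ± 0.17, Oasl1 by 1.14 ± 0.14 and Oas2 by 0.95 ± 0.09. In none of the 5 genes did the groups overlap.

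All 6 GBP and IRG genes, GTPases that attack the vacuoles of intracellular microbes, rose as well. Gbp2 was the most abundant gene of the whole set per length (194 TPM in untreated old bladders). It had 77.8, 77.0, 88.1, 104 and 81.7 CPM in middle-aged bladders and 92.5 to 197 CPM (median 129) in untreated old bladders, a rise of 0.75 ± 0.17 (adjusted p = 0.00584) with overlap. Ifi47, an IRG protein, had 10.2, 10.6, 10.3, 9.22 and 8.19 CPM against 15.3 to 33.5 CPM (median 23.4), and rose by 1.28 ± 0.16 (adjusted p = 0.000144) without overlap. Igtp rose by a similar 1.23 ± 0.17. Irgm1 (0.72 ± 0.12), Gbp3 (0.60 ± 0.11) and Gbp7 (0.56 ± 0.08) rose less. The span of Ifi47 overlaps that of Olfr56, and the span of Igtp that of Irgm2, on the same strand. Elsewhere in the set, Rtp4 overlaps Gm45338 on the same strand and Masp1 on the opposite strand. Dhx58, Usp18, Oasl1, Rnf213 and Ifi35 each overlap another gene on the opposite strand.

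Among Bst2, Cmpk2 and Rsad2 only Bst2 passed the test. Bst2 (tetherin, which holds budding virus at the cell surface) had 21.9, 21.4, 24.4, 23.1 and 18.8 CPM in middle-aged bladders and 26.9 to 39.2 CPM (median 32.6) in untreated old bladders, a rise of 0.60 ± 0.09 (adjusted p = 0.000507). Rsad2 (viperin, which makes a chain-terminating nucleotide) had 9.66, 15.1, 7.94, 7.58 and 7.97 CPM against 9.59 to 13.9 CPM (median 10.3), with a log2 fold change of 0.21 ± 0.17 (adjusted p = 0.413). Cmpk2, its neighbour on chromosome 12 and a nucleotide kinase, had 8.48, 8.36, 10.1, 6.25 and 8.27 CPM against 8.85 to 14.9 CPM (median 9.29), with 0.32 ± 0.15 (adjusted p = 0.146). The 95% intervals of both, -0.16 to 0.59 for Rsad2 and -0.0054 to 0.64 for Cmpk2, include changes as large as that of Stat2.

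Trim30a gave the smallest adjusted p of the set. This ubiquitin ligase, which dampens Toll-like receptor signals, had 18.4, 18.8, 18.1, 16.3 and 16.3 CPM in middle-aged bladders and 30.5 to 35.3 CPM (median 33.6) in untreated old bladders. Trim30a rose by 0.95 ± 0.06 (adjusted p = 1.92e-06), with little spread in either group. Rnf213, a giant ubiquitin ligase, had 87.2, 92.5, 83.1, 80.2 and 87.8 CPM against 112 to 128 CPM (median 122), a rise of 0.52 ± 0.04 (adjusted p = 8.07e-06). Parp14, an ADP-ribosyltransferase, had 86.8, 96.9, 95.9, 88.9 and 98.2 CPM against 102 to 120 CPM (median 113), a rise of 0.28 ± 0.05 (adjusted p = 0.00140). None of the 3 overlapped between the groups.

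Of the remaining 5 genes, 4 rose. Ifi44 had 3.90, 3.82, 4.54, 3.82 and 3.23 CPM in middle-aged bladders and 6.13 to 10.9 CPM (median 7.65) in untreated old bladders, a rise of 1.03 ± 0.14 (adjusted p = 0.000290). Rtp4, a chaperone of receptor trafficking, rose by 0.92 ± 0.12, Xaf1, which promotes apoptosis, by 0.59 ± 0.10, and Ifi35 by 0.26 ± 0.05. Ifi27 stood apart as the second most abundant gene of the set per length (138 TPM in untreated old bladders) with the smallest estimate. It had 50.4, 53.0, 55.3, 60.5 and 55.0 CPM against 53.1 to 67.3 CPM (median 58.1), with a log2 fold change of 0.13 ± 0.06 (adjusted p = 0.146, 95% interval -0.0020 to 0.26).

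**Figure D2:**
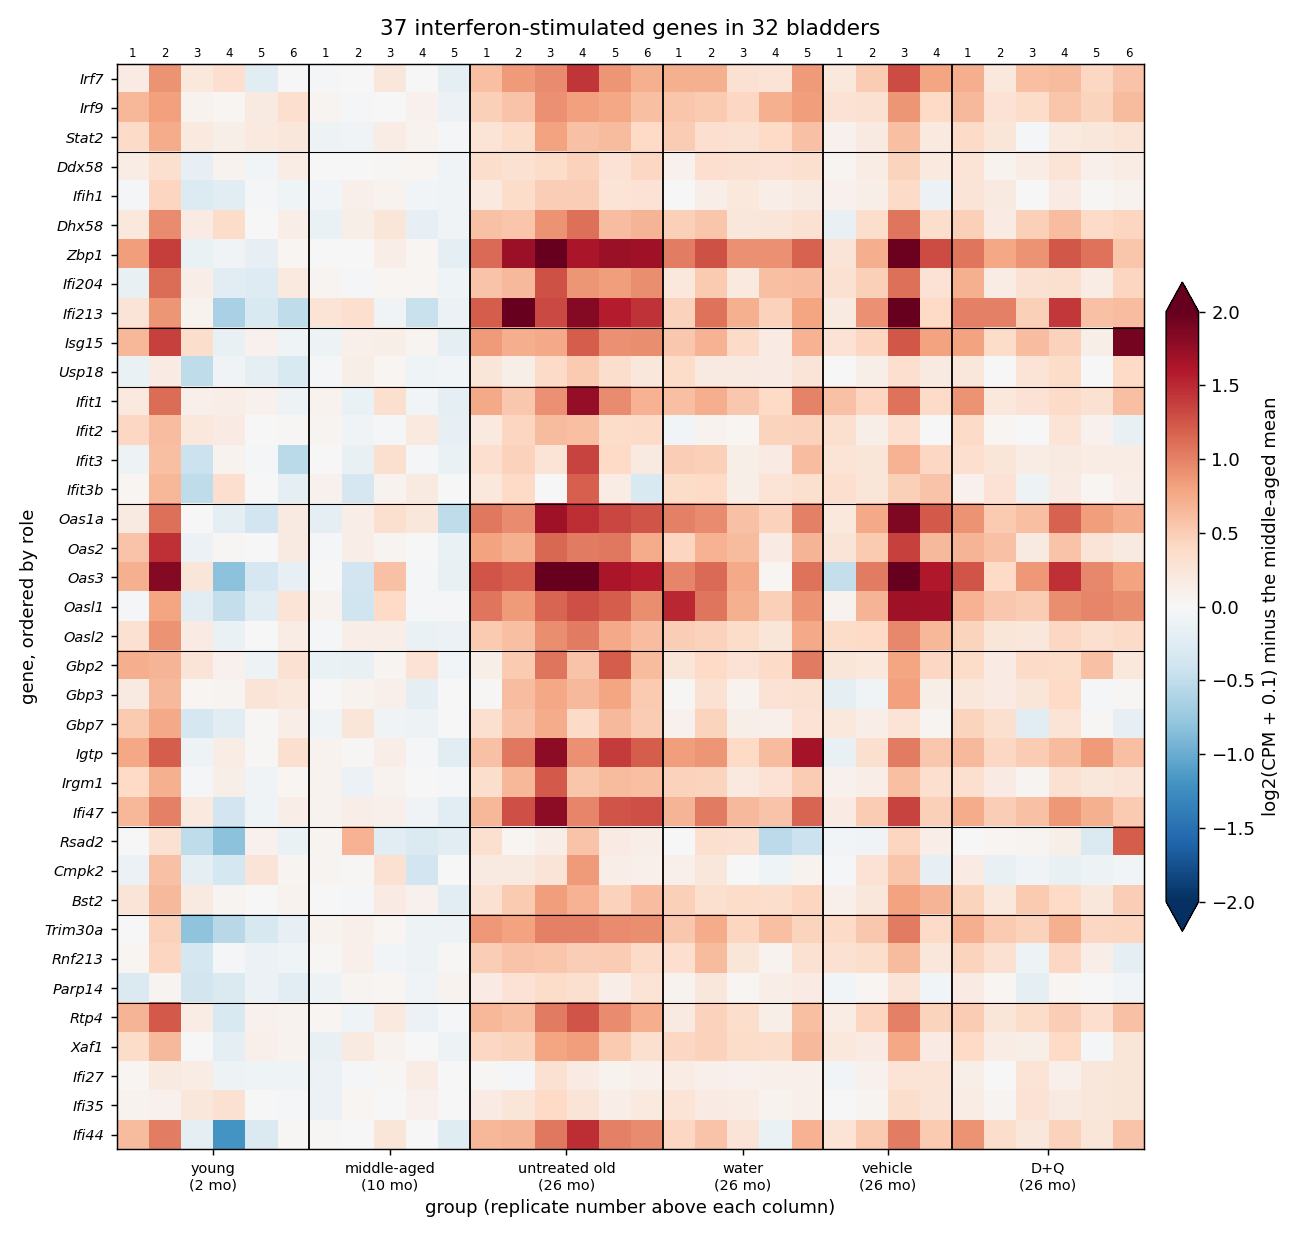
Level of 37 interferon-stimulated genes (y axis, ordered by role) in each of 32 bladders (x axis, by group, replicate number above), as log2(CPM + 0.1) minus the middle-aged mean of the gene. Untreated old bladders are red for most genes, and young replicate 2 and vehicle-treated replicate 3 stand out from their groups, being the highest of their group in 35 and 36 of 37 genes.

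The rest of the pathway was read from a list of 43 genes, of which 32 were tested in this comparison. Of these, 23 rose and none fell, against 13.0% of the 17156 genes tested that rose. Their median log2 fold change was 0.18, while that over all genes tested was below 0.01 in absolute value. The ligands were the exception in level, since none of the 10 interferon genes listed passed the filter. Ifna1, Ifna4, Ifna5 and Ifnl3 had 0 counts in all 32 bladders together, which allows up to 3 counts over all bladders, or 0.00279 CPM. Ifnb1 had 4 counts in all, Ifna2 1, Ifnl2 1 and Ifnk 13. Ifne, made by epithelia of the reproductive tract, had 178 counts and at most 0.388 CPM. Ifng had 214 counts over 27 bladders. It was at 0 to 0.138 CPM in middle-aged and 0.141 to 0.798 CPM in untreated old bladders, 11 and 88 counts in total, too few for the test. Intervals of this kind cover counting error only.

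Receptors rose little: 4 of 6 passed (13.0% of all genes tested rose in this comparison), the largest being Ifngr1 (0.33 ± 0.05). Of the kinases and STATs, 4 of 5 passed, among them Jak1 (0.15 ± 0.03, adjusted p = 0.00623) and Jak2 (0.13 ± 0.03, adjusted p = 0.00429), while Tyk2 gave 0.06 ± 0.03 (adjusted p = 0.231). Of the interferon regulatory factors outside the set, 4 of 5 passed, led by Irf8 (0.70 ± 0.11), a factor of myeloid and B cells. Of the upstream sensors and adaptors, 6 of 10 passed. They were led by the endosomal receptors Tlr9 (1.11 ± 0.12) and Tlr7 (1.01 ± 0.08), with Sting1 (0.90 ± 0.10) and Cgas (0.63 ± 0.11), which together answer to DNA in the cytosol. Mavs, the adaptor of the RNA sensors, gave -0.08 ± 0.04 and did not pass. Of the brakes, 5 of 6 tested rose, led by Socs3 (1.09 ± 0.26), which limits cytokine signals, and Ptpn6 (1.06 ± 0.08), a phosphatase of blood cells.

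Markers of immune cells rose in the same comparison, in which 13.0% of all genes tested rose. All 4 leukocyte genes passed (median log2 fold change 1.64), as did all 8 T cell genes (2.52), 6 of 7 B cell genes (4.43), 5 of 6 plasma cell genes (2.48) and 6 of 7 macrophage genes (0.72). The summed level of the 8 T cell genes was 12.5 to 15.6 CPM in middle-aged and 48.1 to 107 CPM in untreated old bladders, and none of them was at 0. For the 7 macrophage genes the sums were 440 to 516 CPM and 599 to 1003 CPM. Of the 6 natural killer cell genes 2 passed, with sums of 5.43 to 8.33 CPM and an overlapping 8.15 to 15.9 CPM. Of the 6 neutrophil genes only 1 could be tested, and it rose (0.88), with sums of 4.10 to 5.43 CPM and 5.77 to 13.9 CPM, while Ly6g was at 0 in the middle-aged bladders. Plasmacytoid dendritic cells are the main makers of type I interferon in blood. Their 5 listed genes (Siglech, Ccr9, Klk1, Cox6a2 and Cd300c) summed to 4.99 to 7.03 CPM and 3.54 to 8.58 CPM. Sums this low in whole bladders do not show whether the number of these cells changed. The part of immune cells in the rise of the 37 genes was not tested. Without the 427 immunoglobulin genes 33 of the 37 genes again passed.

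Within the untreated old group the 2 bladders with the most top values were apart in some groups of genes and alike in others. Replicate 4 held the highest value of all 32 bladders for 14 of the 37 genes and replicate 3 for 12. The mean of log2(CPM + 0.1) over the 4 IFIT genes was 4.601 in replicate 4, where replicate 3 had 3.83 and lay among the other 4 bladders (3.61 to 3.84). Over the 6 GBP and IRG genes the order was turned around, with 6.09 in replicate 3 and 5.53 in replicate 4, the latter below 4 of the other 5 bladders. Not every gene followed its family. Ifit2 was at 28.7 CPM in replicate 4 and 29.2 CPM in replicate 3, and the IFIT mean includes the uncertain pair Ifit3 and Ifit3b. Gbp2 and Gbp3 were highest in replicate 5 (197 and 68.9 CPM, against 180 and 68.2 CPM in replicate 3). In the 5 OAS genes (3.53 in replicate 3 and 3.58 in replicate 4) and the 6 sensors (4.31 and 4.30) the 2 bladders were alike, and both were above the other 4 bladders (3.00 to 3.34 and 3.91 to 4.17). For example, Ifit1 was at 25.7 CPM in replicate 4 against 14.3 CPM in replicate 3, while Irgm1 was at 50.0 CPM or below in all but replicate 3 (73.6 CPM). The mean over the ISG15 pair was also highest in replicate 4 (3.72, against 3.41 in replicate 3). So was that over Bst2, Cmpk2 and Rsad2 (4.29 against 3.99). Replicate 4 had the lowest leukocyte sum (228 CPM), the lowest T cell sum (48.1 CPM) and the highest mean over the 37 genes (4.73) of its group. Replicate 3 had a mean of 4.68, the highest T cell sum (107 CPM) and the highest macrophage sum (1003 CPM). How these sums bear on the 37 genes was not tested. These single bladders have no replicate of their own, and the difference between the families was not tested. The 2 bladders were picked by their values of the same 37 genes, so their place above the others follows in part from the choice.

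**Figure D3:**
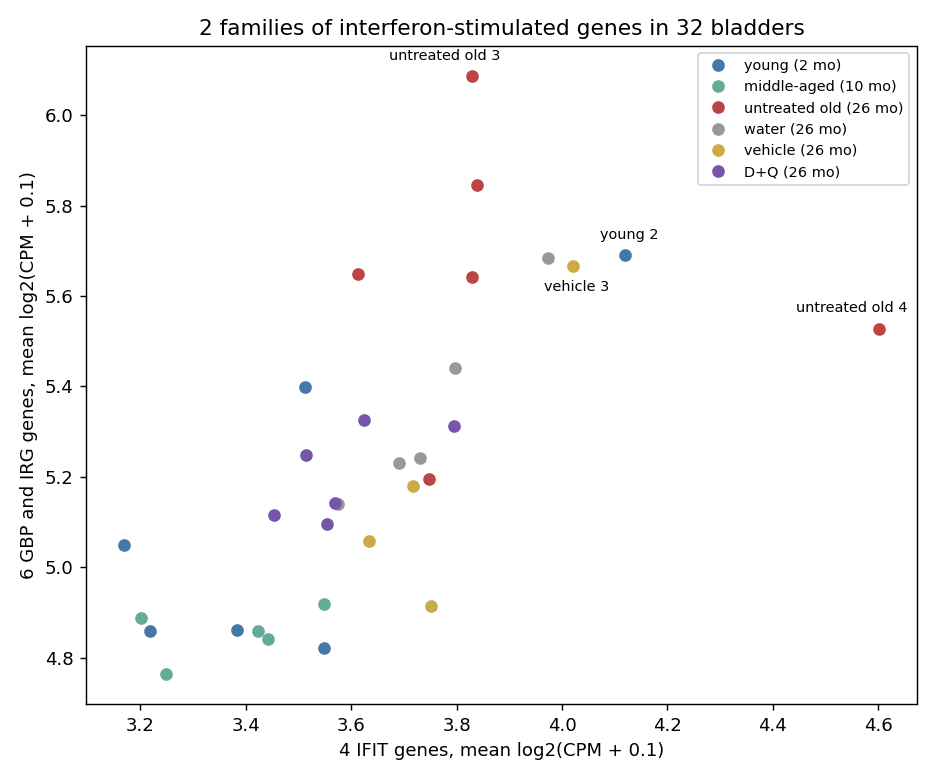
Mean log2(CPM + 0.1) over 4 IFIT genes (x axis) against the same over 6 GBP and IRG genes (y axis), 1 point per bladder, coloured by group. Untreated old replicate 4 lies farthest right (4.601) at a middling height (5.53), and untreated old replicate 3 is highest (6.09).

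The comparison of middle-aged with young bladders asked whether the level already moved before old age. A single gene passed, Stat2, which fell by 0.34 ± 0.10 on the log2 scale (adjusted p = 0.0488), against 5.85% of the 16754 genes tested that fell. The young values of Stat2 ran from 58.7 to 89.96 CPM (median 62.5), and middle-aged values overlapped them. Its call was lost when young replicate 1 or 6 or any of the 5 middle-aged bladders was left out (adjusted p 0.0645 to 0.115). The median over the 37 genes was -0.23, and 32 of 37 estimates were negative, with 6 at an unadjusted p under 0.05 and negative, against 14.1% of all genes. This lean rested largely on young replicate 2. That bladder was the highest of its group in 35 of 37 genes and above every middle-aged bladder in 35, with a mean over the 37 genes of 4.56 where the other 5 young bladders were at 3.65 to 4.06 and the middle-aged bladders at 3.68 to 3.90. Without it the median was -0.08. Young replicate 2 also had the highest leukocyte sum (253 CPM, others 108 to 150 CPM) and macrophage sum (900 CPM, others 440 to 581 CPM) of its group, but not the highest T cell sum (13.3 CPM, others 11.4 to 18.7 CPM). Whether these cells bear on its interferon-stimulated genes was not tested.

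In untreated old against young bladders 18 of the 37 genes rose and none fell, against 12.6% of the 16873 genes tested that rose, and the median was 0.46. This comparison shares its untreated old bladders with the comparison above. The 3 largest were Ifi213 (1.56 ± 0.25, adjusted p = 0.000492), Zbp1 (1.25 ± 0.27, adjusted p = 0.00415) and Oas3 (1.21 ± 0.40, adjusted p = 0.0408). Young values of Ifi213 ran from 1.85 to 5.52 CPM (median 2.75), below the 7.0 to 12.6 CPM (median 8.61) of untreated old bladders. For Zbp1 the young values were 3.90 to 11.6 CPM (median 4.34) and for Oas3 0.538 to 3.91 CPM (median 1.06), and in both only young replicate 2 reached into the old group. The call of Oas3 was lost when young replicate 1, 3, 4, 5 or 6 or untreated old replicate 3, 4, 5 or 6 was left out (adjusted p 0.0570 to 0.0894). Only Parp14, Oasl1, Trim30a and Ifi213 were free of overlap (4 of 37, against 6.61% of all genes tested that were higher without overlap). Without young replicate 2 the number that rose was 32 and the median 0.60, and the share of all genes that rose in that fit is not given here. The 4 IFIT genes did not pass against young bladders (Ifit1 0.68 ± 0.24, adjusted p = 0.0538), nor did Isg15 (0.43 ± 0.23, adjusted p = 0.208).

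**Figure D4:**
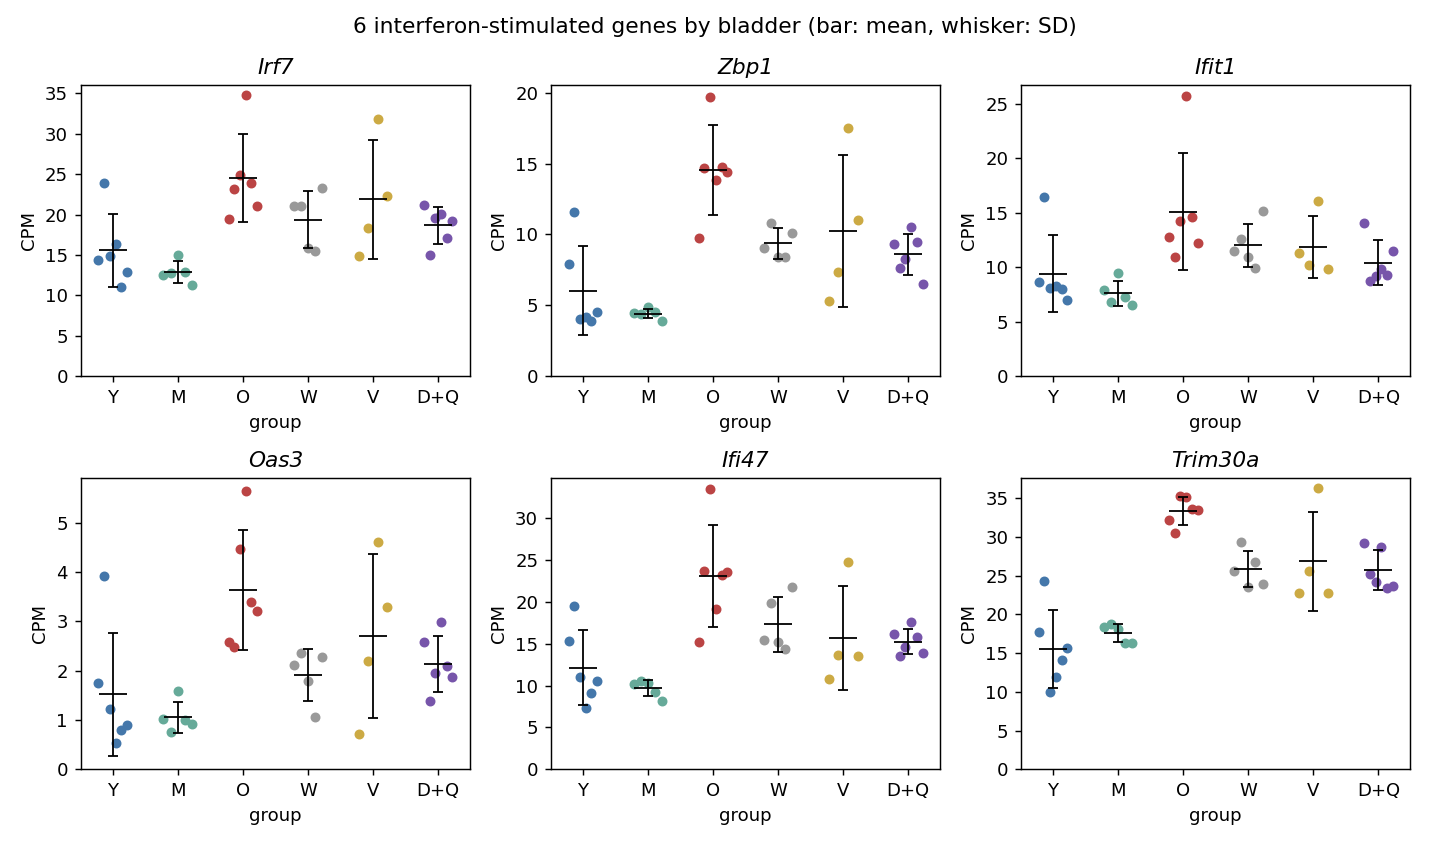
CPM (y axis) of 6 genes in each bladder of 6 groups (x axis: Y young, M middle-aged, O untreated old, W water, V vehicle, D+Q). Points are bladders, bars are means and whiskers SD. In Trim30a the 5 middle-aged bladders (16.3 to 18.8 CPM) lie below the 6 untreated old bladders (30.5 to 35.3 CPM), with most gavaged bladders between them.

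The gavaged groups were compared with untreated old bladders of the same age, which serve as the shared reference of the 3 comparisons below. In water-treated bladders 2 genes fell, against 0.516% of the 17250 genes tested that fell. Trim30a had 25.6, 29.4, 23.6, 26.7 and 24.0 CPM, all below the 30.5 CPM of the lowest untreated old bladder, and fell by 0.38 ± 0.06 on the log2 scale (adjusted p = 0.0191). Ifi213 had 4.10, 6.38, 4.91, 4.10 and 5.17 CPM, again without overlap, and fell by 0.91 ± 0.17 (adjusted p = 0.0280). All 37 estimates were negative, their median was -0.28, and 23 of 37 had an unadjusted p under 0.05 and were negative, against 8.13% of all genes tested. DESeq2 placed 14 of the 37 genes lower, against 2.67% of its 14695 genes tested. A single fit over all 6 groups placed none of the 37, but it called 0 of all 18093 genes in this comparison. The call of Trim30a was lost without untreated old replicate 5 or water-treated replicate 1 or 5 (adjusted p 0.0518 to 0.0561), and that of Ifi213 without untreated old replicate 2, 5 or 6 or water-treated replicate 1, 3, 4 or 5 (adjusted p 0.0523 to 0.0886). None of the leukocyte, T cell or macrophage markers passed in this comparison. The leukocyte sum was 170 to 414 CPM under water, around the 228 to 358 CPM of untreated old bladders (median log2 fold change -0.15), the T cell sum 30.6 to 84.2 CPM against 48.1 to 107 CPM (median -0.48, 2 of 8 genes lower at an unadjusted p under 0.05) and the macrophage sum 608 to 683 CPM against 599 to 1003 CPM (median -0.17). Their part in the lower values of the 37 genes was not tested.

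In vehicle-treated bladders no gene of the set, and no gene at all, passed edgeR's test (0.0% of 17440 lower), although 1464 genes had an unadjusted p under 0.05. DESeq2 called 127 genes, of which Gbp7 was the 1 member of the set, and it was lower, against 0.361% of 14137 genes. The median of the 37 genes was -0.22, and 8 were negative at an unadjusted p under 0.05, against 3.77% of all genes. The 3 smallest unadjusted p-values were those of Gbp7 (-0.37 ± 0.08, adjusted p = 0.285), Parp14 (-0.21 ± 0.07, adjusted p = 0.485) and Igtp (-0.72 ± 0.26, adjusted p = 0.511). The group was split by replicate 3, which was the highest of the 4 bladders in 36 of 37 genes. Zbp1 was at 5.27, 7.33, 17.5 and 10.99 CPM, Oas3 at 0.707, 2.19, 4.61 and 3.29 CPM and Irf7 at 14.9, 18.4, 31.9 and 22.4 CPM, so that replicate 1 was the lowest and replicate 3 the highest of the group in each. Replicate 3 also had the highest leukocyte sum (474 CPM, others 121 to 219 CPM), T cell sum (110 CPM, others 17.8 to 44.7 CPM) and B cell sum (344 CPM, others 44.9 to 96.9 CPM) of the group. Without it the median of the 37 genes was -0.39.

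In D+Q-treated bladders no gene of the set and no gene at all passed edgeR's test either (0.0% of 17037 lower), where 2200 genes had an unadjusted p under 0.05 and DESeq2 called 172. Yet 30 of the 37 genes were lower at an unadjusted p under 0.05, against 6.67% of all genes tested, and DESeq2 placed 16 of the 37 lower, against 0.812% of its 17743 genes tested. The median was -0.37 and 35 estimates were negative, all but those of Rsad2 and Ifi27. The smallest unadjusted p-values belonged to Trim30a (-0.38 ± 0.06, unadjusted p = 4.17e-05), Zbp1 (-0.76 ± 0.15, unadjusted p = 0.000198) and Oasl2 (-0.42 ± 0.08, unadjusted p = 0.000201), each with an adjusted p of 0.233. Trim30a values ran from 23.4 to 29.2 CPM (median 24.7) under D+Q, below the whole untreated old group. Zbp1 ran from 6.48 to 10.5 CPM (median 8.79) and only its highest bladder exceeded the lowest untreated old bladder (9.73 CPM). By family, the GBP and IRG genes were at -0.38 to -0.60, the OAS genes at -0.33 to -0.76, the sensors at -0.20 to -0.76, and Isg15 and Usp18 at -0.05 and -0.09. Isg15 had 1 high bladder, D+Q replicate 6, at 11.8 CPM against 3.34 to 5.44 CPM in the other 5 bladders. The same bladder held 21.6 CPM of Rsad2 against 7.64 to 10.1 CPM. Leukocyte markers had negative estimates too: all 4 were lower at an unadjusted p under 0.05 (median -0.42), as were all 8 T cell markers (median -0.67), and none of either list passed adjustment. Their part in the lower values of the 37 genes was not tested. Of 32 pathway genes tested none passed, 13 were lower at an unadjusted p under 0.05, and Tlr9 (-0.65 ± 0.14, adjusted p = 0.233) had the smallest p-value.

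The 3 gavaged groups therefore stood side by side at medians of -0.28 (water), -0.22 (vehicle) and -0.37 (D+Q), in comparisons that share their reference bladders. To separate D+Q from gavage, D+Q-treated bladders were compared directly with each gavage control. Against water no gene passed (0.0% of 17161 genes lower, 1342 with an unadjusted p under 0.05), DESeq2 called 66 genes but none of the set, and the median was -0.09. The smallest unadjusted p-values were those of Stat2 (-0.20 ± 0.07, adjusted p = 0.535), Xaf1 (-0.22 ± 0.09, adjusted p = 0.583) and Irgm1 (-0.15 ± 0.07, adjusted p = 0.627). These 3 were the genes lower at an unadjusted p under 0.05, against 3.19% of all genes. Against vehicle no gene passed (0.0% of 17267 lower, 722 with an unadjusted p under 0.05), DESeq2 called 13 genes but none of the set, and the median was again -0.09. Ifit3b (-0.30 ± 0.11), Oasl2 (-0.27 ± 0.11) and Ifit3 (-0.21 ± 0.09), each with an adjusted p of 0.994, were the 3 lower at an unadjusted p under 0.05, against 1.47% of all genes. Without vehicle replicate 3 the median turned to 0.05, and without vehicle replicate 1, 2 or 4 it was -0.19, -0.14 and -0.13. Against water it was -0.05 without water-treated replicate 2, -0.04 without water-treated replicate 5, -0.14 without D+Q replicate 1 and -0.05 without D+Q replicate 6. The 95% interval of D+Q over water was -0.29 to -0.0025 for Irgm1 and -0.71 to 0.07 for Igtp. For Zbp1 it was -0.37 to 0.11 over water and -0.87 to 0.36 over vehicle, so these samples exclude neither a lower nor a higher level of Zbp1 under D+Q.

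**Figure D5:**
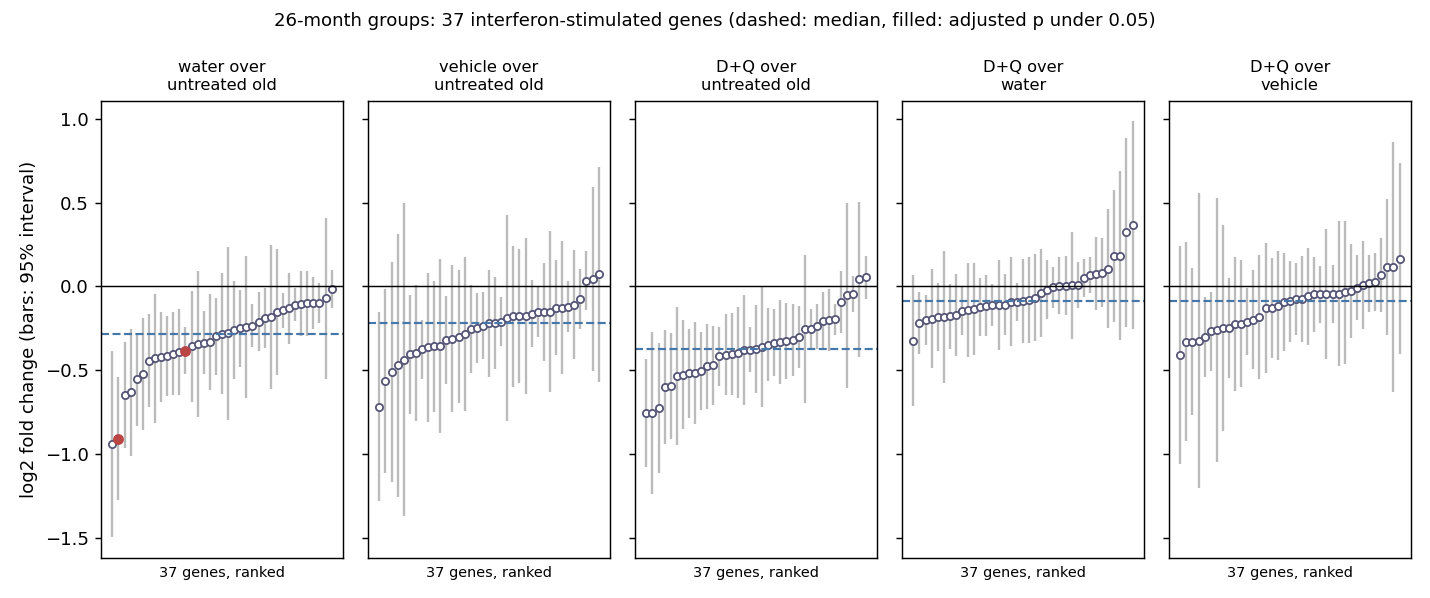
Log2 fold changes (y axis) of 37 interferon-stimulated genes, ranked within each panel (x axis), for 5 comparisons among 26-month groups. Points are estimates with 95% intervals, filled points (2, water over untreated old) passed adjusted p under 0.05, and dashed lines are the medians, -0.28, -0.22 and -0.37 against untreated old and -0.09 against both water and vehicle.

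The gavaged old groups were also set against middle-aged bladders, a comparison added after the values were seen. In water-treated bladders 26 of the 37 genes were higher, against 8.02% of the 17023 genes tested. In vehicle-treated bladders 8 were higher, against 3.02% of 17162, and in D+Q-treated bladders 23, against 7.58% of 16992. The medians were 0.39, 0.50 and 0.36 where untreated old bladders had 0.73. These comparisons share the middle-aged bladders. These counts depended on the fit: 1 fit over all 6 groups placed 14 (water), 14 (vehicle) and 9 (D+Q) higher, against 6.54%, 5.6% and 4.19% of 18093 genes, and DESeq2 placed 22 higher for vehicle, against 5.88% of 19228. Zbp1 had the smallest adjusted p of the set in D+Q-treated bladders (0.97 ± 0.12, adjusted p = 0.000218) and in water-treated bladders (1.09 ± 0.10, adjusted p = 0.000277). The count in vehicle-treated bladders varied with single libraries. It was 25, 4, 5 and 2 without vehicle replicate 1, 2, 3 and 4. Without middle-aged replicate 1, 2, 3, 4 and 5 it was 0, 2, 1, 0 and 0. Shares of all genes called are not given here for fits with a bladder left out. Whether such changes are particular to the 37 genes was not tested. The median for vehicle without replicate 3 was 0.315. In water-treated bladders 17 genes were higher without middle-aged replicate 5.

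The spread between bladders was itself wider for these genes than for all tested genes within their range of level, which were not matched to them gene by gene. The median SD of log2(CPM + 0.1) over the 37 genes was 0.38 in young, 0.13 in middle-aged, 0.21 in untreated old, 0.19 in water-treated, 0.32 in vehicle-treated and 0.15 in D+Q-treated bladders. For 11989 genes within the same range of mean level the medians were 0.16, 0.10, 0.09, 0.12, 0.14 and 0.12. In every group the members' median was the higher, with 28 to 36 of the 37 genes above that of all genes. Without young replicate 2 the young value was 0.24 against 0.16 for the genes within the same range, with 26 of the 37 genes above it. Without vehicle replicate 3 the vehicle value was 0.16 against 0.13, with 22 of 37 above it. In untreated old bladders the SD ranged from 0.06 for Ddx58 to 0.51 for Ifit3b.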

How the data were processed

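RNA of 32 whole bladders was sequenced from stranded total RNA libraries. Per the authors' methods, reads were aligned with STAR 2.7.3 to mm10 and counted per gene with featureCounts. The authors deposited raw counts of 32285 genes without normalization, and each gene's exon length in bases, another unit deposited in the same table. Strandedness of counting and the treatment of reads with several matches are not given in the sources used here. A second table of normalized expression was not used. The result of 1 pathway gene is not reported here.

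Groups followed the labels. Counts were compared with edgeR 4.0.16 in R 4.3.3 (TMM, filterByExpr, quasi-likelihood test, 2-group fits, Benjamini-Hochberg adjusted p under 0.05) in 8 comparisons, and 3 comparisons were added after the data were seen. Replicate numbers are those of the titles, and the descriptions number some middle-aged, water- and vehicle-treated bladders differently. By either numbering, bladders sharing a number did not deviate together in every pair of any comparison, so replicates were treated as unpaired. This does not exclude a batch shared by number. SE is the estimate divided by the root of F. CPM used TMM factors, and TPM used exon lengths. Alternatives were DESeq2 1.42.0, its size-factor scaling, no filter, all 6 groups in 1 fit, removal of 427 immunoglobulin genes, a replicate block, a pseudocount of 1, and each bladder left out. Fits were first tested on simulated counts. Gene lists were matched by symbol. All 37 genes are named. Full values are given in each role for the gene highest per length and the gene with the largest change with age, in other comparisons for the 3 largest changes past the threshold or the 3 smallest p-values. Members and lists were chosen with earlier results of these data known. The labels do not tie replicates to separate animals, so p-values measure the spread between these samples. Python 3.11.15 with matplotlib 3.10.9 made the plots.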

Additional observations from a re-analysis of the deposited data

Results flagged for a closer look

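Bladders far from the rest of their group (by Dixon's gap test on log2 values, 95% level) were found in 16 of 228 tests, where chance would give about 11.4, so some of these are likely to be chance. In young replicate 2, Ifih1 was at 33.6 CPM (others 20.7 to 24.6), Ifi204 at 16.2 (others 6.22 to 8.60), Ifit1 at 16.5 (others 6.97 to 8.62) and Gbp3 at 62.5 (others 41.1 to 47.5). In untreated old replicate 4, Ifit1 was at 25.7 CPM (others 10.97 to 14.6), Ifit3 at 40.4 (others 17.9 to 21.7) and Cmpk2 at 14.9 (others 8.85 to 9.80). Irgm1 was at 73.6 CPM in untreated old replicate 3 (others 39.9 to 50.0), and Gbp3 at 40.5 CPM, the lowest, in untreated old replicate 1 (others 57.4 to 68.9). Ifit3 was at 19.8 CPM in middle-aged replicate 3 (others 14.3 to 15.7). In water-treated bladders, Ddx58 was lowest in replicate 1 at 53.6 CPM (others 61.9 to 64.1), Gbp2 highest in replicate 5 at 176.0 CPM (others 101 to 113) and Ifi27 highest in replicate 1 at 60.8 CPM (others 58.0 to 58.7). Xaf1 was at 23.7 CPM in vehicle-treated replicate 3 (others 15.5 to 15.9). In D+Q-treated bladders, Rsad2 was at 21.6 CPM in replicate 6 (others 7.64 to 10.1) and Cmpk2 at 9.17 CPM in replicate 1 (others 7.39 to 7.89).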

How the results depend on the processing

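The rise from middle-aged to untreated old bladders gave 33 of 37 genes under each of 6 alternatives and 32 to 33 with any bladder left out (median 0.67 to 0.79). In middle-aged against young bladders 1 gene passed, 2 with DESeq2 or 1 fit over all groups, 0 without the filter or with the replicate block, and 0 to 3 with a bladder left out. Untreated old against young gave 12 to 32 genes with a bladder left out, 32 without young replicate 2. Counts with a bladder left out are given without the share of all genes called in the same fits. Whether changes in these counts are particular to the 37 genes was not tested. Water-treated against untreated old gave 2 genes, 14 with DESeq2, 0 in the fit over all groups, 0 with the replicate block, and 0 to 4 with a bladder left out. The fit over all groups called 0 of all 18093 genes there and the replicate block 0 of 17250. Those zeros are therefore not particular to the 37 genes. DESeq2 gave 1 gene for vehicle-treated and 16 for D+Q-treated against untreated old, where edgeR gave 0 with every bladder left out in turn. Against middle-aged bladders, 1 fit over all groups gave 14 genes (water, 26 in the 2-group fit), 14 (vehicle, 8) and 9 (D+Q, 23). For vehicle DESeq2 gave 22 and the replicate block 0, against 1131 of 19228 and 92 of 17162 genes higher in all. With a bladder left out these counts were 17 to 26, 0 to 25 and 18 to 25. In no comparison did the deviations of every same-numbered pair correlate above 0.1, by the numbers of the titles or of the descriptions. Replicates were therefore left unpaired, but this rule does not exclude a batch shared by number. By titles, 3 of 6 bladders in untreated old against young matched their own number best. By descriptions, 3 of 4 pairs in D+Q-treated against vehicle-treated correlated above 0.1. Calls lost under the block are thus uncertain. The check and block by descriptions were added after the data were seen. That block gave 34 genes for untreated old against middle-aged, 0 for middle-aged against young, 0 for water-treated against untreated old and 2 for vehicle-treated against middle-aged. For water-treated against untreated old it called 0 of all 17250 genes. No median over the 37 genes moved by more than the spread between bladders under any alternative. A pseudocount of 1 left the untreated old minus middle-aged mean at 0.66 (0.73 with 0.1). Why calls differ between edgeR and DESeq2 was not tested. Groups of 4 to 6 bladders limit changes of the size seen after gavage.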
